A study of Mus musculus with 12 samples.

Results

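Cells short of oxygen switch on a shared set of genes. Of that set, 39 genes that lie outside glycolysis were followed in synovial macrophages from joint explants kept with or without calcitonin gene-related peptide (CGRP), a neuropeptide released by pain-sensing neurons. The members were chosen by gene symbol, as genes known from general biology to respond to hypoxia, to encode the hypoxia-inducible factor (HIF) or to control it. Earlier results of these data were known when the choice was made. Of the 39 genes, 37 had a row among the 26699 gene symbols of the count files and 36 passed the filter on low counts (11927 genes of the series did). *Stc2* and *Tmem45a* were not analysed here. *Car12*, which encodes a carbonic anhydrase of the cell surface, was below the filter, at 0 to 1.31 CPM (counts per 1000000 counts of a library) in the 12 libraries.

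HIF is a pair of proteins. Its alpha subunit (encoded by *Hif1a* or *Epas1*) is made all the time but is hydroxylated by the EGLN enzymes when oxygen is present, which lets VHL mark it for destruction, whereas its beta subunit (*Arnt*) is stable. When oxygen falls, or when inflammatory signals raise its synthesis, the alpha subunit accumulates, pairs with the beta subunit and activates genes for blood vessel growth, mitochondrial turnover, lipid storage and collagen modification, and also the genes of some of its own inhibitors. Macrophages in inflamed joints are a known site of HIF activity, and macrophages stabilise HIF in response to immune stimuli as well as to hypoxia.

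The libraries came from adult wild-type C57BL/6 mice. Whole synovium was dissected and held ex vivo for 4 h with 100 nM CGRP or without it, then digested with collagenase, and MHCII+CD11c- macrophages (titled IAIE) and MHCII+CD11c+ macrophages (titled CD11c) were sorted from it. Each of the 4 groups (either subset, control or CGRP) had 3 libraries. The explants held all cell types of the tissue, so the peptide could reach the sorted cells directly or act on them through other cells, and the time out of the body was common to all groups, controls included. Nothing in the labels says whether libraries of a group came from separate animals or explants, so the p-values measure only the spread between these samples, which may be technical.

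The libraries held 2127191 to 4465508 counts in the control groups and 4009081 to 5649698 in the CGRP groups, so the CGRP libraries were deeper on the whole, and 3 counts in a library corresponded to 0.531 to 1.41 CPM. *Itgax*, the gene for CD11c, was at 6.15 ± 4.73 CPM (SD, n = 3) in MHCII+CD11c- controls and at 235.5 ± 28.7 CPM in MHCII+CD11c+ controls, and *H2-Ab1*, an MHCII gene, at 3869 ± 382 and 10545.5 ± 878 CPM. With CGRP *Itgax* was lower in MHCII+CD11c+ cells, at 115 ± 7.28 CPM (log2 fold change -1.03 ± 0.30 SE, adjusted p = 0.0288). *H2-Ab1* was lower with CGRP in both subsets. It stood at 2321 ± 243 CPM in MHCII+CD11c- cells (-0.74 ± 0.11 SE, adjusted p = 0.000316) and 6659 ± 506 CPM in MHCII+CD11c+ cells (-0.66 ± 0.11 SE, adjusted p = 0.000574). The 10 macrophage markers summed to 10360 to 13750 CPM in MHCII+CD11c- controls and 10380 to 11450 CPM with CGRP. In MHCII+CD11c+ cells they summed to 8832 to 11350 CPM without CGRP and to a lower range, 6970 to 8443 CPM, with it. In each subset 1 of the 10 was called higher with CGRP and 1 lower (adjusted p under 0.05).

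CGRP libraries carried more RNA of the hypoxia-responsive genes in both subsets. In MHCII+CD11c- cells, 17 of the 36 tested members were higher with CGRP, 1 was lower and 18 did not pass the test (edgeR's quasi-likelihood test with Benjamini-Hochberg adjustment over all genes tested, adjusted p under 0.05, as for every adjusted p given here). That made 47.2% of the members higher, against 5.32% of all genes tested higher and 3.89% lower. In MHCII+CD11c+ cells, 18 of the 36 members were higher, against 6.29% of all genes. None was lower there, by edgeR or by DESeq2 or limma-voom, and the count of lower members at an unadjusted p under 0.05 was also 0 in each, against 4.59% of all genes lower at the adjusted threshold. The median log2 fold change over the tested members was 0.52 and 0.75, respectively, and over all genes -0.02 and 0.00. With every library thinned to the lowest total, 18 members were higher in MHCII+CD11c- cells and 19 in MHCII+CD11c+ cells. In bulk samples, fewer cells of a type and less RNA per cell cannot be told apart, nor can more of either.

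The libraries showed this one by one. The median member lay 0.54, 0.39 and 0.61 log2 units above its control mean in the 3 CGRP libraries of MHCII+CD11c- cells. In those of MHCII+CD11c+ cells it lay 0.72, 0.52 and 0.81 above that mean. The control libraries lay between -0.04 and 0.05, but each was compared with a mean that includes it, which holds these values near 0. The 3 CGRP values were all above the 3 control values for 19 members in MHCII+CD11c- cells, against 13.0% of all genes, and for 21 in MHCII+CD11c+ cells, against 15.4%. The same 16 members were higher in both subsets, 94.1% of those higher in MHCII+CD11c- cells and 88.9% of those higher in MHCII+CD11c+ cells. Across all genes tested, 3.25% were higher in both, which was 61.1% and 51.7% of the respective lists. Across the 36 members, the fold changes of both subsets had a Pearson's r of 0.82 and a Spearman's rho of 0.83. Over all 11927 genes tested, Pearson's r was 0.33. These values are a description across genes, which are not independent replicates, and of libraries that may share explants.

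**Figure D1:**
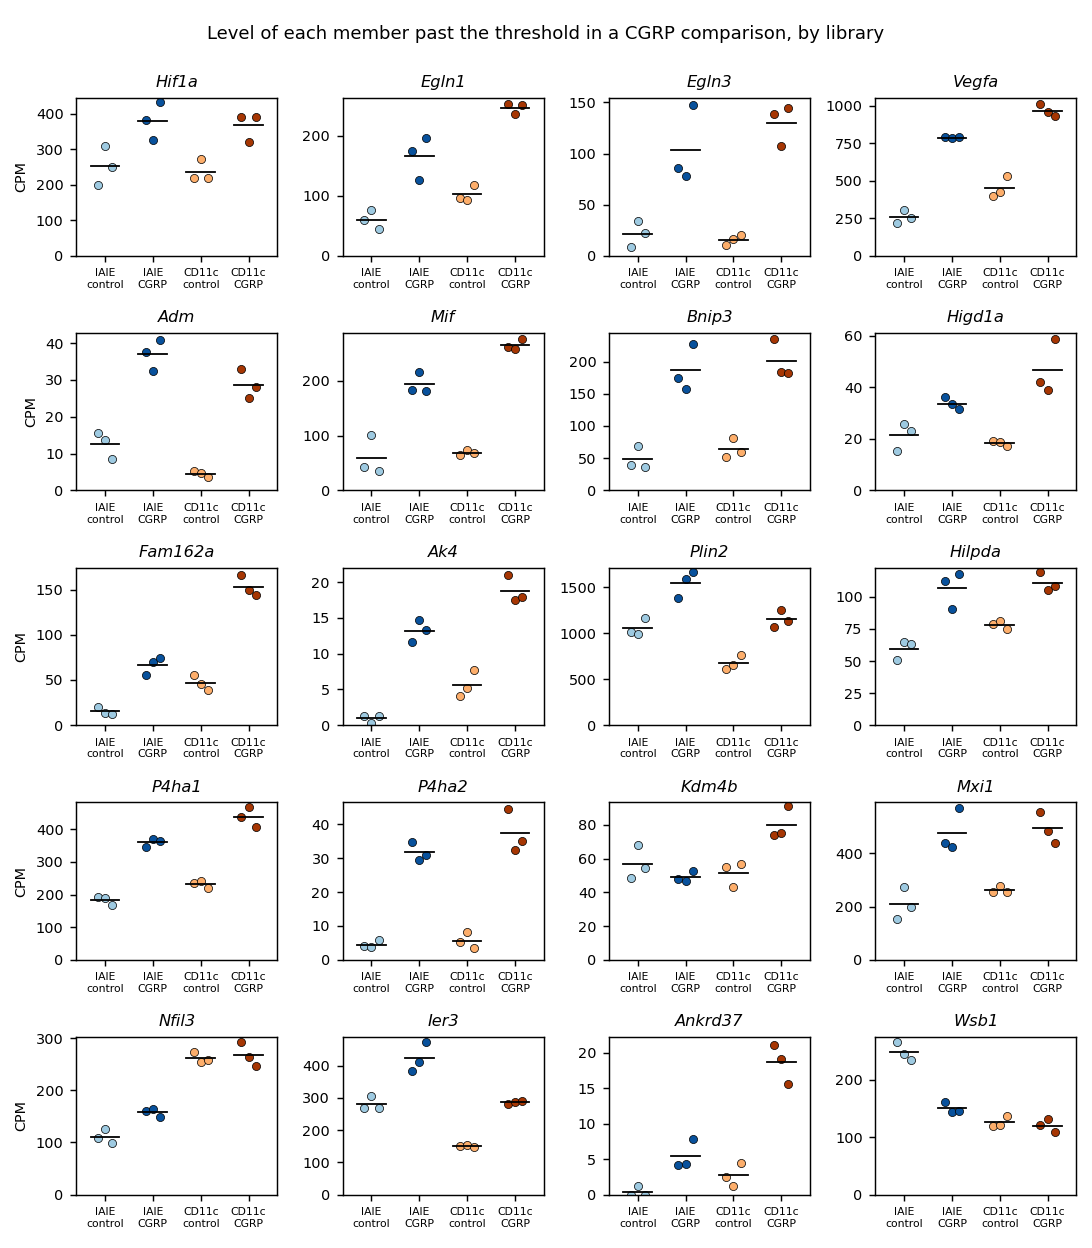
Level of each member that passed the test in a CGRP comparison, in CPM, with 1 point per library, 3 libraries per group and a bar at the group mean. For *Vegfa* the 3 MHCII+CD11c- CGRP libraries sat between 786 and 790.2 CPM, above the controls at 220.1 to 305 CPM, and *Wsb1* in MHCII+CD11c- cells sat at 144 to 161 CPM, below its controls at 236 to 267 CPM.

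HIF binds a short core with the letters ACGTG or GCGTG, so the DNA just upstream is shown for 4 of the 5 members with the smallest adjusted p among those that hold such a match (the other is *Vegfa*) and for *Mif*, which has the smallest among those that hold none. Both were searched on both strands (so also as CACGT and CACGC) in the 250 bases before each RefSeq start on GRCm38.p6, with overlapping matches counted. At least 1 match was present for 16 of the 18 members that rose in either subset and had a window (88.9%) and for 10 of the 12 others with a window (83.3%). It was also present for 61.9% of all genes tested with a window, and in 38.6% of all windows. A match describes letters, not a bound site. In the first 4 sequences, written 5′ to 3′ on the strand of the gene, capitals mark these matches. In the last, which holds none, they mark TGACGTCA, the palindromic element bound by the cAMP-responsive factor CREB, which was searched after these letters had been seen.
Fam162a, chr16:36071562-36071811, - strand: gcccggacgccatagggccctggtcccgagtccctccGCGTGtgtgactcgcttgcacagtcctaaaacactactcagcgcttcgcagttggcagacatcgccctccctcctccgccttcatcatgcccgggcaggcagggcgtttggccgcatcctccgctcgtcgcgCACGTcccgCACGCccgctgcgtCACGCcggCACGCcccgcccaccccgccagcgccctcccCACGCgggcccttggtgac
Adm, chr7:110627407-110627656, + strand: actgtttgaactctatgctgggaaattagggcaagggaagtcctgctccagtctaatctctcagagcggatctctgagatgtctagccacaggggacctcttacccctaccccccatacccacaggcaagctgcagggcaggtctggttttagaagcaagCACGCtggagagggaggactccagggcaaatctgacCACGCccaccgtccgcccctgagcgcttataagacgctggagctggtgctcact
P4ha2, chr11:54100674-54100923, + strand: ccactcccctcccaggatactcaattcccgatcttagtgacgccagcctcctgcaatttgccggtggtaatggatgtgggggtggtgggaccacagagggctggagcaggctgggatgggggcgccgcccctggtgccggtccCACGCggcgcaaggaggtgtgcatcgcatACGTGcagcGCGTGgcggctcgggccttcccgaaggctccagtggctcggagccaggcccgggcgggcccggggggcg
Egln3, chr12:54203875-54204124, - strand: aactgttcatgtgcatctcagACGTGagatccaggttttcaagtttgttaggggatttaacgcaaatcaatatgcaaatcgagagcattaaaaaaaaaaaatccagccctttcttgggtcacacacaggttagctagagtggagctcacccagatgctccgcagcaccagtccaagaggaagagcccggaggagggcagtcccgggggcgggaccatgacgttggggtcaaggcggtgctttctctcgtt
Mif, chr10:75860278-75860527, - strand: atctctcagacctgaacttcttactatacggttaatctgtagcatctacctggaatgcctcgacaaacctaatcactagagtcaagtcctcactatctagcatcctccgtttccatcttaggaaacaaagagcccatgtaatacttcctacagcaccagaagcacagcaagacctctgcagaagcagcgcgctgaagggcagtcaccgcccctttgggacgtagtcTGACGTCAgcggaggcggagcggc
The *Fam162a* window held 6 matches, and 33 of its bases lie in an annotated exon of the gene. *Adm* had 2, at 90 and 54 bases before the start, *Egln3* had 1 at 229 bases, and the 3 in *P4ha2* lay in a window inside an intron of a longer transcript of the gene. For *Vegfa*, the window before the first start held none, and a second window, which held 2 matches, overlaps the coding part of the gene. TGACGTCA was found for *Mif* alone among the members that rose (5.56% of those with a window), for *Arnt*, *Errfi1* and *Wsb1* among the others (25.0%), and for 3.1% of all genes tested with a window.

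Among the HIF subunits, *Hif1a* alone passed the test. *Hif1a* stood at 199.8, 308 and 249.5 CPM in MHCII+CD11c- controls and at 383, 325 and 432 CPM with CGRP, and at 218, 272 and 219.8 CPM against 391, 320.5 and 391 CPM in MHCII+CD11c+ cells. CGRP values lay above the controls in both subsets, with the narrowest gap in MHCII+CD11c- cells, where one control reached 308 CPM. The log2 fold change was 0.59 ± 0.16 (SE, as throughout; adjusted p = 0.0237) and 0.63 ± 0.16 (adjusted p = 0.0124). In each subset the *Hif1a* call was lost without control replicate 1 or 3 or without CGRP replicate 1 or 3 of that subset (adjusted p = 0.0533 to 0.115 in MHCII+CD11c- and 0.0605 to 0.0806 in MHCII+CD11c+ cells). *Epas1*, which encodes the alpha subunit HIF-2α, was low and uneven, at 31.3, 3.20 and 55.9 CPM in the MHCII+CD11c+ CGRP libraries against 24.4, 4.89 and 5.77 CPM in their controls (1.47 ± 0.67, adjusted p = 0.194). *Arnt* was between 74.2 and 106 CPM in all 12 libraries, with log2 fold changes of -0.09 ± 0.15 and -0.01 ± 0.15 (adjusted p = 0.783 and 0.98).

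Among the 5 genes of oxygen sensing and HIF restraint, both prolyl hydroxylases rose. *Egln3*, whose enzyme hydroxylates the alpha subunit and which is itself a HIF target, stood at 8.93, 33.6 and 21.8 CPM in MHCII+CD11c- controls and 85.6, 77.7 and 147 CPM with CGRP. Its values in MHCII+CD11c+ cells were 10.6, 16.1 and 20.3 CPM without and 139, 107 and 144 CPM with the peptide. The groups were far apart in both subsets, and the log2 fold change of *Egln3* was 3.02 ± 0.34 in MHCII+CD11c+ cells (adjusted p = 7.49e-06), against 2.26 ± 0.33 in MHCII+CD11c- cells (adjusted p = 0.000208). *Egln1*, the main oxygen sensor of the family, went from 59.1, 76.9 and 44.9 CPM to 175, 127 and 197 CPM in MHCII+CD11c- cells (1.45 ± 0.19, adjusted p = 4.72e-05). *Egln1* in MHCII+CD11c+ cells went from 96.2, 93.4 and 117 CPM to 253, 236 and 251 CPM (1.27 ± 0.18, adjusted p = 8.19e-05), again with no overlap. *Vhl*, the recognition subunit of the ligase, did not pass (0.36 ± 0.33, adjusted p = 0.59, and 0.86 ± 0.32, adjusted p = 0.0935), nor did *Hif1an*, whose enzyme blocks coactivator binding (0.03 ± 0.24 and 0.21 ± 0.24, adjusted p = 0.961 and 0.685), or *Cited2*, which competes with HIF for the coactivator p300 (-0.03 ± 0.15 and 0.34 ± 0.15, adjusted p = 0.947 and 0.177).

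All 3 tested members that encode secreted factors rose in both subsets. *Vegfa*, the main growth factor for blood vessels, was at 220.1, 305 and 251 CPM in MHCII+CD11c- controls and at 790.2, 786 and 789 CPM with CGRP, a log2 fold change of 1.604 ± 0.14 (adjusted p = 1.03e-06), the smallest adjusted p of any member there. *Vegfa* started higher in MHCII+CD11c+ controls, at 401, 425 and 533 CPM, and reached 1012, 957 and 929 CPM with CGRP (1.09 ± 0.13, adjusted p = 1.84e-05). No control reached a CGRP library in either subset, and the CGRP libraries of MHCII+CD11c- cells were nearly equal. *Adm* encodes adrenomedullin, a vasodilator peptide of the same family as CGRP that also signals through the receptor *Calcrl*. It was at 15.7, 13.7 and 8.45 CPM in MHCII+CD11c- controls and 37.7, 32.4 and 40.9 CPM with CGRP (1.53 ± 0.26, adjusted p = 0.000697). *Adm* in MHCII+CD11c+ cells was lower without the peptide, at 5.28, 4.66 and 3.63 CPM, and rose to 33.0, 25.1 and 28.0 CPM (2.69 ± 0.29, adjusted p = 5.05e-06). The groups did not overlap in either subset, and CGRP brought *Adm* to 37.0 ± 4.28 and 28.7 ± 3.99 CPM (SD, n = 3), respectively. *Mif*, the gene of a cytokine that macrophages store and release, stood at 41.9, 101 and 35.6 CPM against 183, 217 and 181 CPM in MHCII+CD11c- cells (1.68 ± 0.25, adjusted p = 0.000223). Its values were 64.5, 74.0 and 68.6 CPM against 263, 258 and 276 CPM in MHCII+CD11c+ cells (1.94 ± 0.25, adjusted p = 2.79e-05). One MHCII+CD11c- control stood above the other *Mif* controls but below every CGRP library. Of the 50-base words in the *Mif* exons, 50.9% also occur in other genes, chiefly in 1 other gene (44.6%), so its level depends on how shared reads were assigned.

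Of the 5 mitochondrial members, 3 rose in MHCII+CD11c- and 4 in MHCII+CD11c+ cells. *Bnip3*, a receptor that directs mitochondria to autophagy, went from 39.7, 69.2 and 36.03 CPM to 175, 158 and 228 CPM (1.93 ± 0.23, adjusted p = 1.72e-05) and from 52.4, 81.2 and 60.0 CPM to 235, 184 and 183 CPM (1.63 ± 0.22, adjusted p = 4.69e-05). Both changes left a wide gap between the groups, although 47.2% of the words in the *Bnip3* exons are shared with other genes. Its relative *Bnip3l*, with the same function, did not pass (0.42 ± 0.23, adjusted p = 0.296, and 0.60 ± 0.22, adjusted p = 0.0908). *Fam162a*, whose mitochondrial product is linked to cell death in hypoxia, was at 19.7, 13.7 and 12.5 CPM in MHCII+CD11c- controls and 55.3, 69.4 and 73.9 CPM with CGRP (2.1 ± 0.20, adjusted p = 2.8e-06). *Fam162a* in MHCII+CD11c+ cells was at 55.6, 45.4 and 39.3 CPM and 167, 149.8 and 144 CPM (1.73 ± 0.18, adjusted p = 4.82e-06), the smallest adjusted p of any member there. The MHCII+CD11c+ controls were thus close below the MHCII+CD11c- CGRP libraries, and one of them reached into their range. *Ak4*, an adenylate kinase of the mitochondrial matrix, was at 1.23, 0.285 and 1.33 CPM in MHCII+CD11c- controls, which is 4, 1 and 3 counts, and at 11.6, 14.8 and 13.3 CPM with CGRP, which is 44, 61 and 71 counts. Its log2 fold change of 3.83 ± 0.48 (adjusted p = 3.31e-05) rests on 8 control counts. *Ak4* in MHCII+CD11c+ cells rose from 4.06, 5.12 and 7.69 CPM to 21.0, 17.5 and 17.9 CPM (1.71 ± 0.36, adjusted p = 0.0036). *Higd1a*, which helps to assemble the respiratory chain, rose in MHCII+CD11c+ cells, from 19.1, 18.9 and 17.1 CPM to 42.0, 38.9 and 59.0 CPM (1.35 ± 0.23, adjusted p = 0.00052). The *Higd1a* values of MHCII+CD11c- cells were 15.4, 25.9 and 23.1 CPM without and 36.1, 33.4 and 31.5 CPM with CGRP. These did not overlap either, but the difference of 0.64 ± 0.23 did not pass (adjusted p = 0.096).

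Both lipid droplet genes rose in both subsets. *Plin2*, which coats the droplets, was at 1016, 994 and 1165 CPM in MHCII+CD11c- controls and 1383, 1586 and 1662 CPM with CGRP (0.54 ± 0.12, adjusted p = 0.00636), and went from 611, 653 and 758 CPM to 1070.3, 1253 and 1136 CPM in MHCII+CD11c+ cells (0.77 ± 0.12, adjusted p = 0.000229). With CGRP the MHCII+CD11c+ libraries reached about the level of the MHCII+CD11c- controls. *Hilpda*, which inhibits the lipase that empties the droplets, went from 51.1, 64.7 and 63.2 CPM to 112, 90.5 and 118 CPM in MHCII+CD11c- cells (0.84 ± 0.15, adjusted p = 0.0011). The *Hilpda* values in MHCII+CD11c+ cells, 79.2, 81.2 and 75.0 CPM against 119, 105 and 108 CPM, did not overlap either (0.50 ± 0.15, adjusted p = 0.0333). That call was lost without any 1 of the 6 MHCII+CD11c+ libraries (adjusted p = 0.0621 to 0.173). The members *P4ha1* and *P4ha2*, which encode catalytic subunits of the collagen prolyl 4-hydroxylase, rose as well. *P4ha1* went from 192, 188 and 167 CPM to 345, 369 and 366 CPM (0.98 ± 0.12, adjusted p = 2.01e-05) and from 236, 242 and 219.8 CPM to 439, 468 and 406 CPM (0.91 ± 0.12, adjusted p = 2.46e-05). *P4ha2* was much lower and rose more, from 4.00, 3.70 and 5.78 CPM to 34.8, 29.5 and 31.0 CPM in MHCII+CD11c- cells (2.84 ± 0.32, adjusted p = 1.33e-05) and from 5.28, 8.15 and 3.42 CPM to 44.5, 32.5 and 35.2 CPM in MHCII+CD11c+ cells (2.73 ± 0.30, adjusted p = 6.48e-06). For neither subunit did control and CGRP values overlap.

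**Figure D2:**
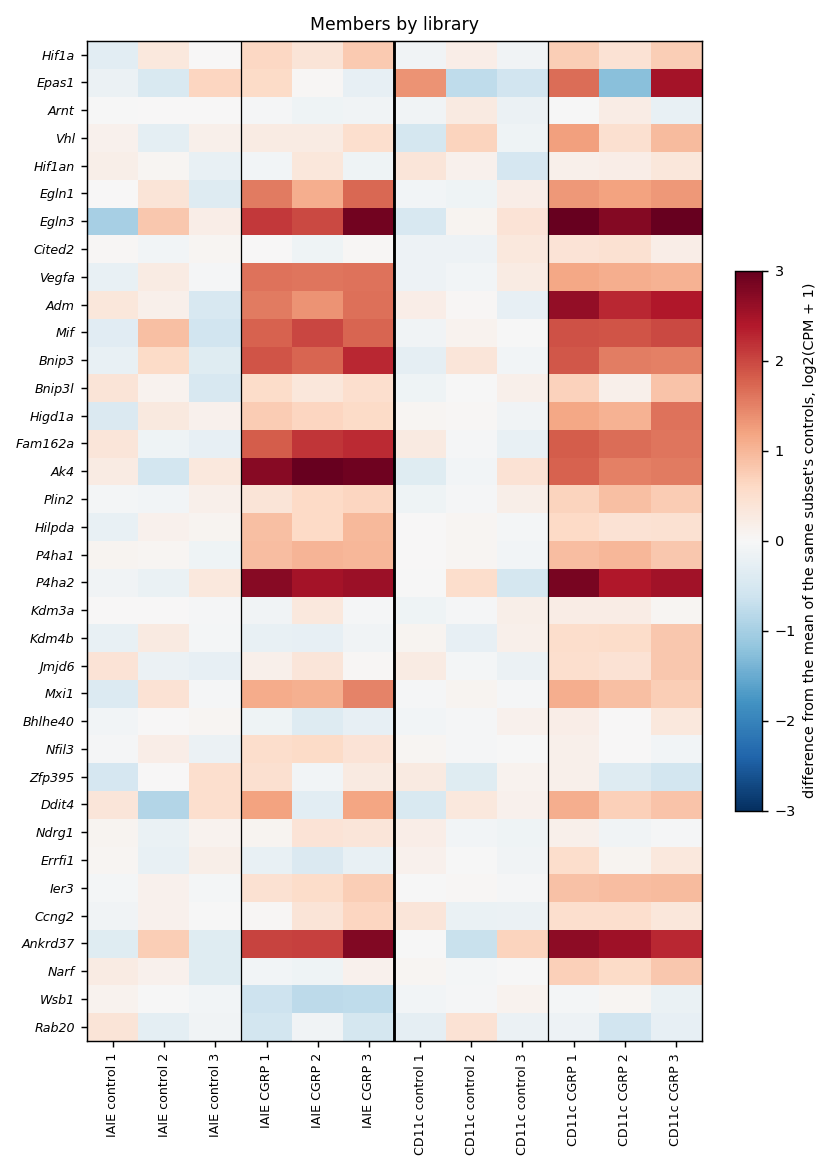
Difference of every tested member in every library from the mean of the control libraries of the same subset (log2, colour scale), with members in rows by role and the 12 libraries in columns. The 6 CGRP columns are shaded towards higher values for 26 to 33 of the 36 members. The control columns are centred on their own mean, so they show no such shift by construction.

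Of the 3 oxygenases that act on chromatin or splicing, none passed the test in MHCII+CD11c- cells and 1 rose in MHCII+CD11c+ cells. *Kdm4b*, a histone H3 lysine demethylase, was at 48.3, 67.8 and 54.3 CPM without and 47.7, 46.9 and 52.5 CPM with CGRP in MHCII+CD11c- cells (-0.22 ± 0.17, adjusted p = 0.532), where the groups overlapped. In MHCII+CD11c+ cells *Kdm4b* went from 54.8, 43.3 and 57.0 CPM to 74.2, 75.1 and 91.0 CPM (0.64 ± 0.17, adjusted p = 0.02), a call that was lost without control replicate 2 (adjusted p = 0.147) or CGRP replicate 3 (adjusted p = 0.152). The demethylase *Kdm3a* lay between 104 and 162 CPM in all libraries (0.07 ± 0.14 and 0.17 ± 0.14, adjusted p = 0.836 and 0.565). *Jmjd6*, a lysyl hydroxylase of splicing factors, did not pass at 0.16 ± 0.20 (adjusted p = 0.725) and 0.61 ± 0.20 (adjusted p = 0.0599).

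Of the 4 transcription factors, *Mxi1*, an antagonist of MYC, rose in both subsets. It stood at 152, 275 and 199 CPM in MHCII+CD11c- controls and 437, 422 and 571 CPM with CGRP (1.19 ± 0.18, adjusted p = 0.000219), and at 254, 276 and 254 CPM against 557, 486 and 439 CPM in MHCII+CD11c+ cells (0.92 ± 0.17, adjusted p = 0.00139). *Nfil3*, a repressor of the basic leucine zipper class, passed in MHCII+CD11c- cells, from 109, 127 and 98.3 CPM to 159.6, 164 and 148 CPM (0.49 ± 0.13, adjusted p = 0.019), a call lost without control replicate 1 or 3 or CGRP replicate 2 (adjusted p = 0.0555, 0.0644 and 0.0716). *Nfil3* in MHCII+CD11c+ cells was at 273, 254 and 258 CPM without and 292, 264 and 246 CPM with CGRP, overlapping values at a higher level (0.03 ± 0.13, adjusted p = 0.921). The repressor *Bhlhe40* did not pass, with log2 fold changes of -0.25 ± 0.12 (adjusted p = 0.235) and 0.18 ± 0.12 (adjusted p = 0.421), nor did the zinc finger gene *Zfp395* (0.21 ± 0.37 and -0.26 ± 0.38, adjusted p = 0.811 and 0.759).

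Of the 5 brakes on growth and stress, only *Ier3*, an early-response gene tied to cell survival, passed the test. It was at 269, 305 and 270.0 CPM in MHCII+CD11c- controls and 385, 410.3 and 472 CPM with CGRP (0.58 ± 0.12, adjusted p = 0.00271), and at 151, 155 and 148 CPM against 280.5, 288 and 291 CPM in MHCII+CD11c+ cells (0.92 ± 0.12, adjusted p = 2.9e-05). The groups did not overlap, and the MHCII+CD11c+ CGRP libraries came to the level of the MHCII+CD11c- controls. *Ddit4*, an inhibitor of the growth kinase mTORC1, was low at 2.28 to 32.8 CPM and had log2 fold changes of 0.87 ± 0.45 (adjusted p = 0.278) and 0.89 ± 0.39 (adjusted p = 0.182). For the stress-induced gene *Ndrg1* they were 0.29 ± 0.14 (adjusted p = 0.227) and -0.00079 ± 0.13 (adjusted p = 0.999), and for *Ccng2*, an unconventional cyclin that slows the cell cycle, 0.39 ± 0.24 (adjusted p = 0.361) and 0.46 ± 0.23 (adjusted p = 0.254). *Errfi1*, an inhibitor of EGF receptor signalling, had opposite signs in the subsets, -0.30 ± 0.14 (adjusted p = 0.215) and 0.31 ± 0.14 (adjusted p = 0.184), neither of which passed.

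The remaining members included the one gene that fell. *Wsb1*, which encodes a substrate receptor of a ubiquitin ligase, was at 267, 245 and 236 CPM in MHCII+CD11c- controls and at 161, 144 and 146 CPM with CGRP, so that no CGRP library reached a control. The log2 fold change was -0.73 ± 0.13 (adjusted p = 0.00074). *Wsb1* in MHCII+CD11c+ cells was already low, at 119.7, 122 and 136 CPM, and overlapped the CGRP values of 121, 131 and 109 CPM (-0.07 ± 0.13, adjusted p = 0.824). *Ankrd37*, a HIF-induced ankyrin repeat gene, had 0, 4 and 0 counts in MHCII+CD11c- controls and 16, 18 and 42 counts with CGRP, which is 4.21, 4.35 and 7.88 CPM. Its fitted log2 fold change of 3.58 ± 0.77 (adjusted p = 0.00479) depends on the small count added by the fit, and limma-voom gave an adjusted p of 0.0549. Without control replicate 2, which held all 4 control counts, the fitted *Ankrd37* value was 7.53, and over all alternatives it ran from 2.995 to 7.53. *Ankrd37* in MHCII+CD11c+ cells went from 2.44, 1.16 and 4.49 CPM to 21.2, 19.2 and 15.6 CPM (2.76 ± 0.56, adjusted p = 0.00249). The genes *Lrp2bp* and *Ufsp2* on the other strand together overlap 26.4% of its exon bases. *Narf*, whose product binds prelamin A, did not pass at -0.06 ± 0.24 (adjusted p = 0.93) and 0.73 ± 0.24 (adjusted p = 0.0529). *Rab20*, a small GTPase of endosomes and phagosomes, did not pass at -0.41 ± 0.23 (adjusted p = 0.305) and -0.37 ± 0.24 (adjusted p = 0.405).

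**Figure D3:**
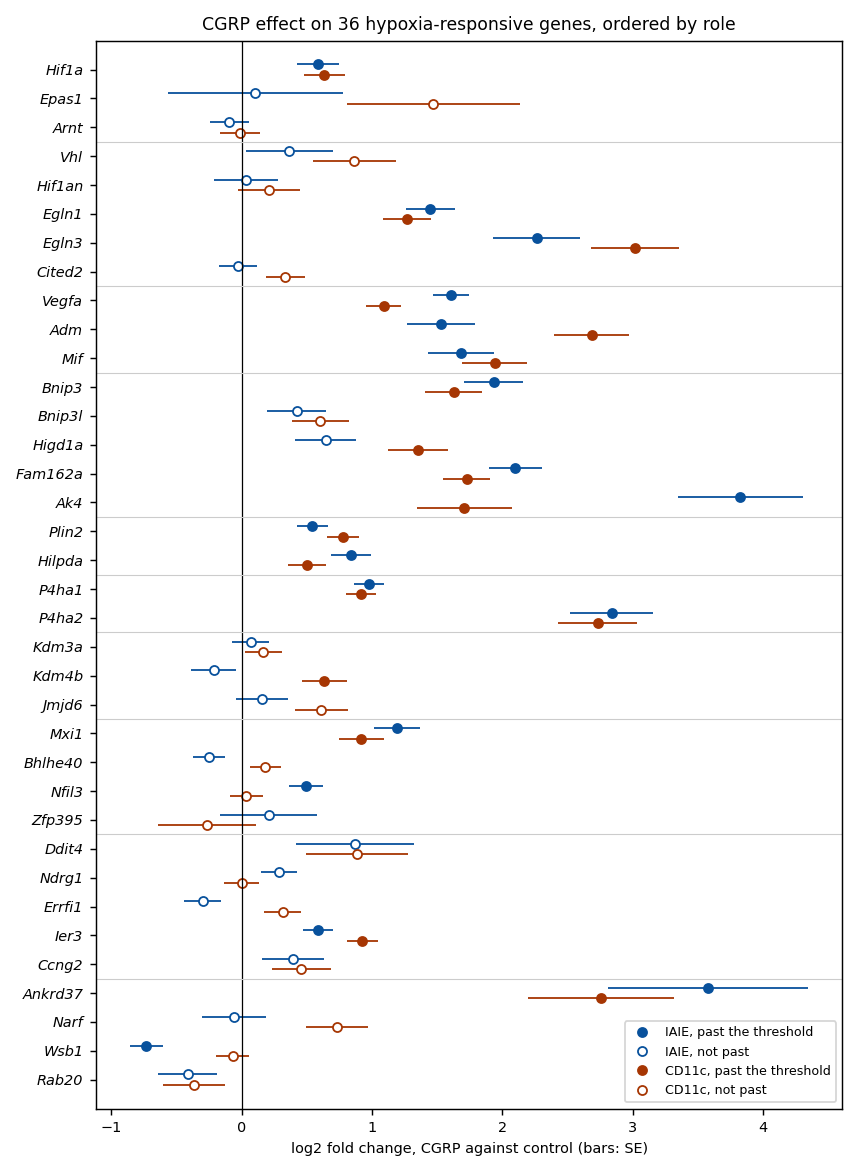
log2 fold change of each tested member with CGRP against control, with bars of 1 SE, in MHCII+CD11c- and MHCII+CD11c+ macrophages. *Ak4* (3.83), *Ankrd37* (3.58) and *P4ha2* (2.84) lie far to the right in the former and *Egln3* (3.02), *Ankrd37* (2.76) and *P4ha2* (2.73) in the latter, and *Wsb1* is the member called lower, at -0.73 in MHCII+CD11c- cells.

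Whether CGRP acted differently on the members in the subsets was tested as the difference between both effects. No member passed, against 0.151% of all genes tested. At an unadjusted p under 0.05 there were 10 of the 36 members, against 1049 of the 11927 genes tested. The signed difference (MHCII+CD11c+ minus MHCII+CD11c-) was positive for 7 of these members and negative for 3. Counts at the adjusted threshold were 0 with limma-voom and with 1 surrogate variable, and 1 with DESeq2, which called *Wsb1* (adjusted p = 0.0467). The *Wsb1* difference was 0.66 ± 0.18 with edgeR (adjusted p = 0.164), positive because its log2 fold change was -0.73 in MHCII+CD11c- and -0.07 in MHCII+CD11c+ cells. The MHCII+CD11c+ effect minus the MHCII+CD11c- effect was -2.12 ± 0.62 for *Ak4* (adjusted p = 0.224), 1.16 ± 0.39 for *Adm* (adjusted p = 0.334) and 0.85 ± 0.24 for *Kdm4b* (adjusted p = 0.217). For *Vegfa* and *Nfil3* it was -0.51 ± 0.19 and -0.46 ± 0.18 (adjusted p = 0.397 and 0.451). The members called in 1 subset alone (*Nfil3*, *Wsb1*, *Higd1a* and *Kdm4b*) are therefore not shown to differ between the subsets by edgeR.

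Per kilobase of exon, which allows genes to be compared, the order of the members differed between control and CGRP libraries. In MHCII+CD11c- controls *Plin2* was highest at 301 CPM per kb, followed by *Ier3* at 249 CPM per kb, *Errfi1* at 118 CPM per kb and *Mif* at 79.7 CPM per kb. *Ak4* at 0.205 and *Ankrd37* at 0.247 CPM per kb were the lowest of the tested members. With CGRP *Plin2* (439.5 CPM per kb) and *Ier3* (373 CPM per kb) were again first in that subset, and *Mif* (260.0 CPM per kb) and *Vegfa* (184 CPM per kb) stood above *Errfi1* (95.7 CPM per kb). In MHCII+CD11c+ cells with CGRP *Mif* was the highest member at 356 CPM per kb, above *Plin2* at 328, *Ier3* at 253, *Vegfa* at 225 and *Fam162a* at 181 CPM per kb. All tested members together made up 4407 to 4695 CPM in the MHCII+CD11c- controls and 6548 to 7308 CPM with CGRP, and 4946 to 5119 CPM and 7644 to 8219 CPM in MHCII+CD11c+ cells.

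Other lists were read the same way to place the members. Of all genes tested, 5.32% were higher and 3.89% lower in MHCII+CD11c- cells. In MHCII+CD11c+ cells 6.29% were higher and 4.59% lower. Among 20 genes of glycolysis and glucose entry, which HIF also induces, 13 were higher in MHCII+CD11c- and 14 in MHCII+CD11c+ cells and none was lower, with medians of 1.17 and 1.12. The 3 with the smallest adjusted p were *Tpi1*, *Pkm* and *Pgk1* in both, with *Tpi1* at 1.85 ± 0.14 (adjusted p = 4.35e-07) in MHCII+CD11c- cells. Among 14 tested HIF cofactors and turnover genes none passed in MHCII+CD11c- cells, and both medians were -0.02. In MHCII+CD11c+ cells 1 rose, the coactivator *Ep300* (0.54 ± 0.16, adjusted p = 0.0324). That is 7.14% of the list, near the share of all genes. Of 10 genes of the integrated stress response, 3 rose in MHCII+CD11c- cells (the cystine transporter *Slc7a11*, *Asns* and *Trib3*) and 2 in MHCII+CD11c+ cells (*Slc7a11* and *Asns*). The 14 genes of the NF-kB response gave 5 lower in MHCII+CD11c- cells, led by *Nfkb1* (-0.96 ± 0.11, adjusted p = 1.78e-05), with medians of 0.07 and -0.19 in the subsets. In MHCII+CD11c+ cells 2 of them rose, *Sod2* (0.85 ± 0.16, adjusted p = 0.00155) and *Tnf* (0.59 ± 0.18, adjusted p = 0.0361), and 1 fell. Of 12 genes of the cAMP response, the pathway downstream of the CGRP receptor, 2 were lower in MHCII+CD11c- and 4 in MHCII+CD11c+ cells and none was higher, with *Nr4a2* at -1.06 ± 0.20 (adjusted p = 0.00185) and -0.996 ± 0.19 (adjusted p = 0.00129).

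**Figure D4:**
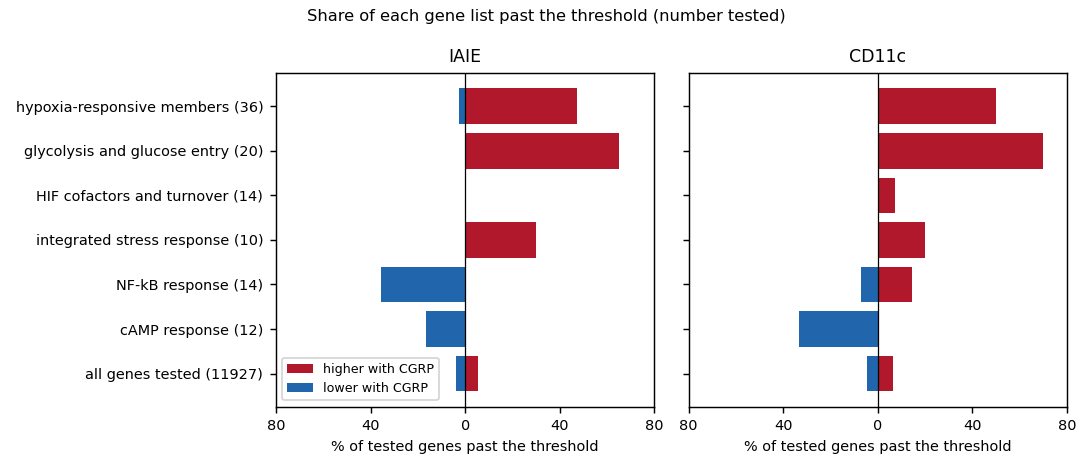
Share of tested genes past the threshold with CGRP for the hypoxia-responsive members, the other lists and all genes tested, in each subset. Bars to the right are genes higher with CGRP and bars to the left are genes lower. The members' medians (0.52 and 0.75) lie below those of the glycolysis list (1.17 and 1.12) and above those of the other lists and of all genes (-0.02 and 0.00).

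Markers of other cells also differed between the libraries. Fibroblast markers (10 genes) summed to 208 to 277 CPM in MHCII+CD11c+ controls and 460 to 764 CPM with CGRP, where 3 of 8 tested rose, and to 359 to 1550 CPM and 568 to 2194 CPM in MHCII+CD11c- cells, where 1 rose and 3 fell. Mural cell markers summed to 3.25 to 6.75 CPM in MHCII+CD11c+ controls and to 313, 8.13 and 165 CPM in the CGRP libraries, and 5 of 6 tested passed the test there. Of 8 tested dendritic cell markers, 3 were lower and 1 was higher with CGRP in MHCII+CD11c+ cells, with a median of -0.91. Among those called, *Cd209a*, *Ccr7* and *Dpp4* had the smallest adjusted p. In MHCII+CD11c- cells 1 was lower (*Flt3*), with a median of -0.37. The 10 dendritic cell markers summed to 639 to 709.8 CPM in MHCII+CD11c+ controls and 677 to 778 CPM with CGRP. Only 1 of the 8 tested had a positive log2 fold change in that subset, so the sum did not move as most of the list did. In MHCII+CD11c- cells the sums were 115 to 178 CPM and 96.7 to 120.0 CPM. The mural markers *Tagln* and *Des* were at 0 in the MHCII+CD11c+ controls. Chondrocyte markers summed to 1.86 to 6.49 CPM in these controls and to 58.6, 411 and 9.03 CPM with CGRP. The endothelial marker *Ackr1*, the muscle marker *Ckm* and the fat marker *Adipoq* had at most 3 counts in any library. However, the 10 endothelial markers summed to 190, 25.1 and 19.9 CPM in MHCII+CD11c+ controls and to 92.9, 21.4 and 112 CPM with CGRP. In MHCII+CD11c- cells they summed to 18.2 to 22.2 CPM without and 25.7 to 38.7 CPM with CGRP. None of the 7 tested endothelial markers passed with CGRP in either subset. Neutrophil markers summed to 30.4 to 454 CPM in MHCII+CD11c+ controls and 25.2 to 217 CPM with CGRP, where 1 of 9 tested was lower. In MHCII+CD11c- cells they summed to 89.4 to 401.5 CPM without and 118 to 271 CPM with CGRP, and none passed. Fat markers summed to 12.1 to 73.4 CPM and muscle markers to 3.42 to 10.4 CPM. Without MHCII+CD11c+ CGRP replicate 1, 2 or 3, 16, 19 and 15 members passed the test in that subset. The part of the other cells in the members' changes was not tested.

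Last, the subsets were compared with each other. In control libraries 10 of the 36 members (27.8%) were higher in MHCII+CD11c+ than in MHCII+CD11c- cells, against 10.2% of all genes tested. Lower were 6 of the 36, against 10.9%. *Bhlhe40* and *Nfil3* had the smallest adjusted p, at 619.5 ± 46.7 against 254 ± 12.9 CPM (SD, n = 3; log2 difference 1.28 ± 0.12, adjusted p = 4.91e-07) and 261 ± 10.1 against 111 ± 14.3 CPM (1.23 ± 0.13, adjusted p = 1.7e-06). *Fam162a* (1.59 ± 0.21, adjusted p = 1.57e-05), *Ndrg1* (0.997 ± 0.14, adjusted p = 3.03e-05) and *Vegfa* (0.81 ± 0.14, adjusted p = 0.000235) were also higher in MHCII+CD11c+ controls, as were *Ak4*, *Egln1*, *Ddit4*, *Ankrd37* and *P4ha1*. The lower members were *Wsb1* (-0.99 ± 0.13, adjusted p = 1.52e-05), *Ier3* (-0.90 ± 0.12, adjusted p = 2.08e-05), *Cited2*, *Plin2*, *Adm* (-1.52 ± 0.30, adjusted p = 0.00111) and *Rab20* (-1.12 ± 0.23, adjusted p = 0.00174). The calls of *P4ha1*, *Ddit4* and *Ankrd37* were lost without single control libraries (*P4ha1* without MHCII+CD11c- replicate 2 or 3 or MHCII+CD11c+ replicate 1 or 2, *Ddit4* without replicate 2 of either subset, *Ankrd37* without MHCII+CD11c- replicate 1 or 3 or MHCII+CD11c+ replicate 3; adjusted p = 0.0598 to 0.174), and the *Ankrd37* difference of 2.57 was fitted at 6.51 without MHCII+CD11c- replicate 2. Members were thus called in both directions, as all genes tested were, with a median over the members of 0.23 and over all genes of -0.02. The 10 dendritic cell markers also summed to more in MHCII+CD11c+ controls (639 to 709.8 CPM) than in MHCII+CD11c- controls (115 to 178 CPM), and 8 of the 10 macrophage markers, 5 of 8 tested fibroblast markers and 5 of 6 B cell markers were lower there. The B cell markers summed to 9.40 to 15.8 CPM in MHCII+CD11c+ and 65.4 to 124 CPM in MHCII+CD11c- controls. Of 9 tested neutrophil markers 3 were lower in MHCII+CD11c+ controls. The part of these cells in the members' differences was not tested.

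With CGRP, 10 of the 36 members (27.8%) were higher in MHCII+CD11c+ cells, against 8.36% of all genes. Lower were 4 of the 36, against 8.51%. *Bhlhe40* again had the smallest adjusted p, at 702 ± 71.1 against 214 ± 18.3 CPM (1.71 ± 0.12, adjusted p = 1.73e-08). *Kdm4b* (0.71 ± 0.17, adjusted p = 0.00615), *Errfi1* (0.58 ± 0.14, adjusted p = 0.00613) and *Narf* (0.83 ± 0.23, adjusted p = 0.0181) passed here and not in the controls. The others that were higher were *Egln1*, *Fam162a*, *Nfil3*, *Ddit4*, *Ndrg1* and *Ankrd37*, and *Cited2*, *Plin2*, *Ier3* and *Rab20* were lower. *Vegfa*, *Ak4* and *P4ha1* on one side and *Adm* and *Wsb1* on the other did not pass in the CGRP libraries (for *Adm* -0.36 ± 0.24, adjusted p = 0.369), and the test of the difference between the CGRP effects did not call any of them with edgeR. In these libraries 7 of the 10 macrophage markers and 5 of the 6 B cell markers were lower in MHCII+CD11c+ cells, 3 of 8 tested dendritic cell markers were higher, and of 8 tested fibroblast markers 1 was higher and 1 lower, and their part was not tested. The B cell sum was 6.37 to 11.4 CPM against 26.9 to 50.8 CPM. Of 9 tested neutrophil markers 2 were lower in MHCII+CD11c+ cells, and their part was not tested either. The number of calls between the CGRP groups fell to 8 without MHCII+CD11c- CGRP replicate 2 and to 9 without MHCII+CD11c+ CGRP replicate 1 or 3. Among the CGRP libraries, leaving out single ones lost *Cited2*, *Egln1*, *Plin2*, *Narf*, *Ankrd37* and *Ddit4* (adjusted p = 0.0512 to 0.2305).

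**Figure D5:**
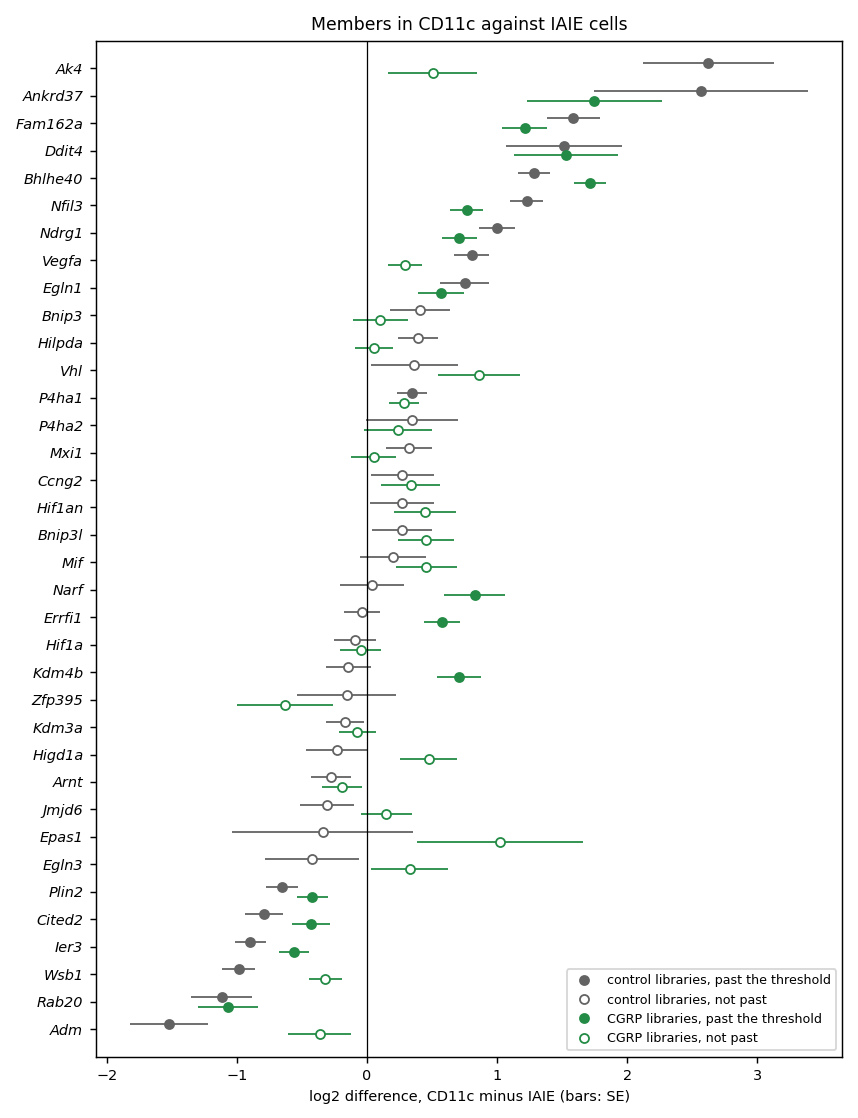
log2 difference of each tested member between MHCII+CD11c+ and MHCII+CD11c- macrophages, with bars of 1 SE, in control and in CGRP libraries. Values to the right are higher in MHCII+CD11c+ cells, such as *Bhlhe40* (1.28 and 1.71), and values to the left are lower, such as *Rab20* (-1.12 and -1.07).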

How the data were processed

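RNA-seq of 12 libraries of sorted synovial macrophages was analysed, 3 in each of 4 groups. The groups were taken from the titles, which call the control libraries Healthy. Libraries were made from 5 ng RNA with a stranded total RNA kit. The authors trimmed the reads with Trim Galore, aligned to mm10 using HISAT2, assigned reads to genes using featureCounts and deposited raw counts per gene symbol for each library. Tool versions, the annotation and how strand was treated are not given in the sources used here, so reads of overlapping genes may be split or shared. In the combined table, 6 columns match no sample here and were not used.

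Counts were analysed in R 4.3.3 with edgeR 4.0.16: genes were kept by filterByExpr (minimum count 10, minimum total 15, leaving 11927 genes), scaled by TMM and fitted with 4 group means over all 12 libraries, and the quasi-likelihood test was adjusted by the Benjamini-Hochberg method over all genes (threshold 0.05). CPM are scaled by TMM. The common biological coefficient of variation was 0.256. Exon lengths, overlaps and 50-base words shared between genes came from GENCODE annotation of GRCm38 (mm10), and upstream sequences from RefSeq. The members, lists, named genes and alternatives were chosen with earlier results of these data known. All 39 members are named, with library values for those past the threshold in a CGRP comparison, and other lists have at most 3 named genes per comparison, those with the smallest adjusted p. Markers at or near 0 were named after their values were seen. Alternatives were DESeq2 1.42.0, limma 3.58.1 (voom), sva 3.50.0, other scalings, filters and blocks, thinning to the lowest total (added after the data were seen) and leaving out each library. The statistics were tested on simulated counts.

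Replicate numbers are shared between groups. Deviations from the group means of same-numbered libraries correlated at 0.330, 0.107 and 0.178 between the CGRP groups of both subsets over 5411 genes, so the numbers were taken to pair these, whereas no other pair of groups had all 3 above 0.1.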

Additional observations from a re-analysis of the deposited data

How the results depend on the processing

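Of the 18 calls with CGRP in MHCII+CD11c- cells and the 18 in MHCII+CD11c+ cells, 15 and 15 held under every alternative in which the member was tested, as did 13 of 16 and 8 of 14 between the subsets without and with CGRP. With the replicate block, which pairs libraries by number, the counts of calls were 18, 18, 0, 16 and 14, the same as without it. Blocking the explant number gave 15 between the control subsets, where *Ankrd37* was lost, and the pairing changed no other count. DESeq2 called 1 member, *Wsb1*, in the test of the difference between the CGRP effects, where the signed difference (MHCII+CD11c+ minus MHCII+CD11c-) was positive. With 1 surrogate variable 2 members were lower in MHCII+CD11c+ than in MHCII+CD11c- cells with CGRP, against 4. Leaving out 1 library at a time, the calls between the CGRP groups ranged from 8 to 15 (higher 6 to 11, lower 2 to 4). The other ranges were 16 to 18 for CGRP in MHCII+CD11c- cells, 15 to 19 in MHCII+CD11c+ cells and 14 to 17 between the control groups. The log2 fold change of *Nfil3* in MHCII+CD11c+ cells, which was not called, turned to -0.016 under upper-quartile scaling and ran from -0.067 to 0.065 without single libraries. *Nfil3* in MHCII+CD11c- cells had an adjusted p of 0.0524 with the compared groups alone. Requiring 10 counts in every library gave 16, 18, 13 and 13 calls, with *Ak4*, *Ankrd37* and *Ddit4* no longer tested. Causes of these changes were not tested, apart from that filter, which removes members by construction. Members under 3 counts, 0.531 to 1.41 CPM, could not be resolved at this depth.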
